A study of Mus musculus with 12 samples.

Results

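The nuclear genes of respiratory complex I were followed in regenerating mouse calf muscle. The members were the protein-coding genes whose GENCODE M21 symbol matches Nduf followed by a, b, c, s or v and a digit, which gave 37 genes of the 54532 counted, on 15 chromosomes. RNA of the gastrocnemius was sequenced in 4 groups of 3 libraries, all from C57BL/6 animals of wild-type genotype, 6 to 7 months old. Needling muscle received acupuncture 24 hours after a bupivacaine injection, bupivacaine being a local anaesthetic toxic to muscle fibres. Injury muscle received bupivacaine alone, saline muscle received a saline injection as the sham, and naive muscle was not injected. The labels did not say that replicates were separate animals, so the p-values reflect the spread among these libraries alone, part of which may be technical. The time from injection to tissue collection was not given in the sources used here. Injury and needling libraries together are called bupivacaine libraries here, and saline and naive libraries together uninjured libraries.

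Complex I, the NADH:ubiquinone oxidoreductase, is the entry point of electrons from NADH into the respiratory chain of the inner mitochondrial membrane. Its matrix arm carries the flavin and the iron-sulfur clusters that pass electrons to ubiquinone, and its membrane arm pumps protons. Core subunits are shared with the bacterial enzyme, those of the matrix arm being nuclear genes and those of the membrane arm mitochondrial genes, while accessory subunits surround the core and are needed for assembly or stability. Of the 37 members, 7 encode core subunits, 9 accessory subunits of the matrix arm and 19 accessory subunits of the membrane arm. The other 2 are Ndufa4, now known as a subunit of cytochrome c oxidase, and its paralogue Ndufa4l2. Ndufab1, the acyl carrier protein of the complex, falls outside the symbol rule and is given with the related lists. The long non-coding gene Ndufb1-ps and the processed pseudogenes Ndufa11b, Ndufb4c and Ndufs6b match the letters of the rule but are not protein-coding.

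Library totals lay between 16385233 and 27155738 counts. The 12 fast-fibre markers fixed for gastrocnemius, among them Myh4, Ckm and Acta1, were detected in every library and summed to 80324 to 123469.8 CPM in needling libraries, 114506 to 152678 CPM in injury libraries, 156133 to 179536 CPM in saline libraries and 165979 to 216456 CPM in naive libraries. The 10 macrophage markers, all detected in every library, summed to 1793 to 2487 CPM in needling libraries, 771 to 1249 CPM in injury libraries, 206 to 457 CPM in saline libraries and 101 to 201 CPM in naive libraries. Saline replicate 1 stood apart in 8 slow-fibre markers, which summed to 132 CPM there against 1335 and 1819 CPM in the other 2 saline libraries. Needling replicate 1 was also low in them, at 365 CPM. Naive replicate 1 held 17488 CPM of 8 heat shock genes, against at most 3085 CPM in any other library. CPM here is scaled by TMM, a factor that sets the bulk of genes equal between libraries and that lay between 1.09 and 1.28 in needling, 1.01 and 1.14 in injury, 0.950 and 0.965 in saline and 0.781 and 0.912 in naive libraries.

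All 37 members passed the filter on low counts. Their levels, as FPKM averaged over the 12 libraries, ran from 2.15 for Ndufb2 to 329 for Ndufa4, with a median of 111. Among core genes Ndufs1 averaged 41.1 FPKM and Ndufs7 169 FPKM. Matrix-arm accessory genes lay between 39.8 FPKM (Ndufv3) and 265 FPKM (Ndufa2), and membrane-arm accessory genes between 2.15 FPKM (Ndufb2) and 277 FPKM (Ndufb11). Ndufb2, singled out after its values were seen, has 5628 bases of annotated exon, some shared with the opposite-strand gene Braf, and its part in the low value was not tested. The members together took 0.572% to 0.839% of all counts. Their summed FPKM was 3383, 3624 and 4110 in needling libraries, 4578, 4445 and 4607 in injury libraries, 4355, 6019 and 5035 in saline libraries and 5977, 6875 and 6369.99 in naive libraries. All 3 needling libraries lay below the other 9, whereas saline replicate 1 lay below every injury library and saline replicate 2 above naive replicate 1.

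The genes varied together from library to library. Taking each gene's log2 CPM minus its naive mean, the median over the 37 members was -0.92, -0.82 and -0.63 in needling libraries, -0.46, -0.49 and -0.44 in injury libraries, -0.53, -0.08 and -0.33 in saline libraries and -0.11, 0.10 and -0.01 in naive libraries. The 3 injury libraries were close to each other, while the saline libraries spread from the injury level to the naive level. Once this common median was taken out, a gene's remaining variation over the 12 libraries had an SD of 0.39 log2 units in Ndufa12, 0.34 in Ndufa4l2 and 0.17 in Ndufs1. It was smaller in the other 34 members, down to 0.05 in Ndufa4. For 35 of the 37 members mean FPKM was ordered needling, injury, saline, naive from low to high, an order that 22.8% of all 15715 tested genes had. Ndufa12 and Ndufa4l2 were the exceptions.

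**Figure D1:**
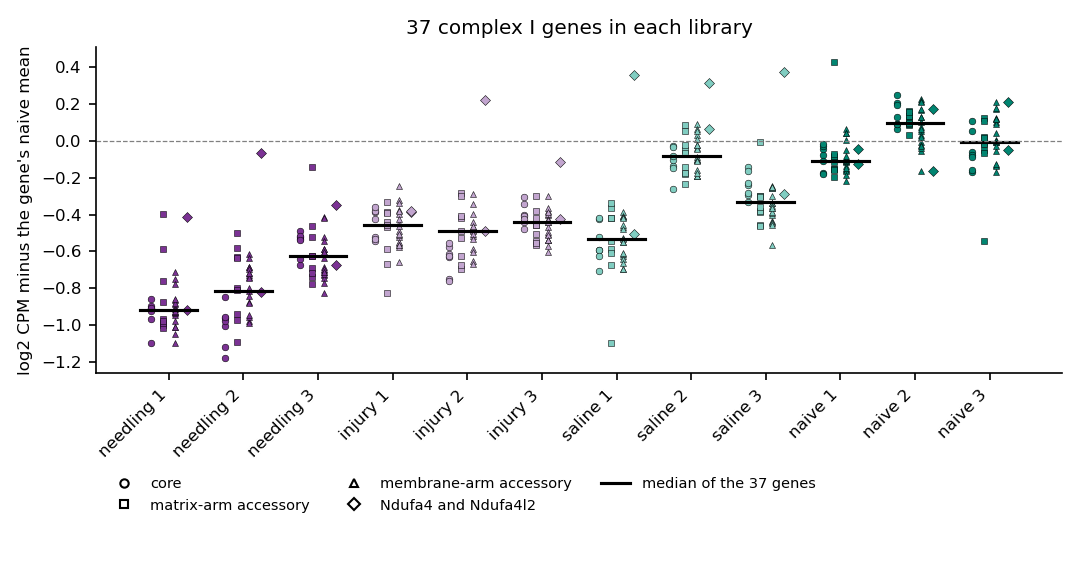
Each symbol is 1 of the 37 genes in 1 library, as log2 CPM (TMM-scaled, prior count of 2) minus that gene's mean over the naive libraries, with symbol shape for its role and a black bar at the median. The bars lie at -0.92 to -0.63 in needling libraries, at -0.49 to -0.44 in injury libraries, at -0.53 to -0.08 in saline libraries and at -0.11 to 0.10 in naive libraries.

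Because the members moved together, their promoters were read for letters that factors known to act on respiratory genes bind. RefSeq windows on GRCm38.p6, from 250 bases before to 50 bases after the annotated start, were found for 32 members. On either strand, the letters GCGCANGCG of NRF1, nuclear respiratory factor 1, occurred in 8 of them, against 6.25% of all 32851 windows and 13.2% of the windows of tested protein-coding genes. The motif AAGATGGCG of YY1, a zinc-finger factor, occurred in 5 (15.6%), against 1.40% and 3.04%. The ETS motif CCGGAAG, bound by GABPA (NRF2) among others, occurred in 4 (12.5%), against 8.86% and 17.4%. The GC-box letters GGGCGGG occurred in 12 (37.5%), against 25.6% and 46.7%. TCAAGGTCA, the site of the estrogen-related receptors, occurred in none, against 0.42% and 0.27%. Windows of 4 members are shown because they hold these letters in different combinations. The GC-box letters, which Ndufs3 and Ndufb4 also hold, are left in lower case. Capitals mark matches to ETS in Ndufs3, to YY1 in Ndufs7, to NRF1 in Ndufb4, and to NRF1 and then YY1 in Ndufs6, and each window reads 5′ to 3′ along its gene. They lie at chr2:90904672-90904971 (minus strand), chr10:80249199-80249498 (plus strand), chr16:37654319-37654618 (minus strand) and chr13:73328433-73328732 (minus strand).
Ndufs3: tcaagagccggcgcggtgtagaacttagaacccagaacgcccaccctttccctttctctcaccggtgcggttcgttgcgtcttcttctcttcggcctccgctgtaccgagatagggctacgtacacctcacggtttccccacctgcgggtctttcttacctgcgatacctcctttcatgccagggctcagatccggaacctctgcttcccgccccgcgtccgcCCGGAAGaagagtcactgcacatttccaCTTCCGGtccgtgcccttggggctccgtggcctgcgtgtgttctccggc
Ndufs7: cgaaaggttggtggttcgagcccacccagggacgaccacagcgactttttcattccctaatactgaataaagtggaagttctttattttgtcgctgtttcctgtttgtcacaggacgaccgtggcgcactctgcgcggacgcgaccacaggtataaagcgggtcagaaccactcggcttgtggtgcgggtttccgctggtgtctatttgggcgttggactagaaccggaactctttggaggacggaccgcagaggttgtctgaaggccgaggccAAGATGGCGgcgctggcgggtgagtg
Ndufb4: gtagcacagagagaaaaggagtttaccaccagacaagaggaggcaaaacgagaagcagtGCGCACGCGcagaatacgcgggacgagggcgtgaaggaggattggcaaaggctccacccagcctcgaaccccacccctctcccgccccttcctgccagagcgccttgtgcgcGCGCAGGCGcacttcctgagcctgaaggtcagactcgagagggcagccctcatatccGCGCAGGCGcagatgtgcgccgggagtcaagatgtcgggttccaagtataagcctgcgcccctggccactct
Ndufs6: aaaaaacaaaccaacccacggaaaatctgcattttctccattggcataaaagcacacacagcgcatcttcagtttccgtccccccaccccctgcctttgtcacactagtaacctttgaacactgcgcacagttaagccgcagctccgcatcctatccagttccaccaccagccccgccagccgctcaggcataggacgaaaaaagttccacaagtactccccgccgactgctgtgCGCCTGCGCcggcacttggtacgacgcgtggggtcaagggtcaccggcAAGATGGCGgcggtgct
In Ndufs7 and Ndufs6 the YY1 letters lie after the annotated start. In Ndufs3 the ETS letters occur in both orientations a short way apart, and Ndufb4 holds 3 matches to NRF1. A match describes these letters only and shows no binding. The RefSeq start can differ from the GENCODE M21 start: the Ndufs7 window lies wholly inside its GENCODE gene, which starts at chr10:80249121. For 25 of the 32 windows, the bases after the RefSeq start were found near the start of a GENCODE transcript of the gene.

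In bupivacaine against uninjured muscle 36 of the 37 members fell, beside 18.3% of all tested genes called lower. All 37 estimates were negative, beside 53.3% of all genes. The median log2 difference was -0.49 over the members and -0.03 over all genes tested, and single members lay between -0.56 (Ndufa5) and -0.30 (Ndufa12). No member was called higher, beside 21.8% of all genes. The call is edgeR's quasi-likelihood test with a Benjamini-Hochberg adjusted p under 0.05 over all genes, on 6 against 6 libraries. The member not called was Ndufa12. The count was 35 without saline replicate 1, 35 without naive replicate 1 and 35 without needling replicate 1. Beside these, 14.2%, 15.9% and 15.5% of all genes were called lower. The lowest count was 34, without saline replicate 2, beside 13.1% of all genes, and the members' median was then -0.40. In CPM the 6 bupivacaine libraries lay wholly below the 6 uninjured ones for 5 members, beside 5.08% of all genes, namely Ndufs3, Ndufa2, Ndufb4, Ndufa13 and Ndufs5. Bupivacaine against uninjured averages injury with needling muscle and saline with naive muscle, so acupuncture and the injection itself also enter it. Injury minus saline, given below, had a members' median of -0.19 and called 0 members, beside 0.07% of all genes called lower. In bulk muscle, fewer fibres and less complex I RNA per fibre cannot be told apart. Fast-fibre markers moved with the members and macrophage markers the opposite way, as given above, and their part in the result was not tested. The size and the calls depend on scaling. With library totals alone the all-gene median moved to 0.29 and the members' median to -0.17, a gap of -0.46 as before. In that setting 1 member was called, beside 1.71% of all genes called lower. Scaled to the 12 fast-fibre genes, a setting added after the data were seen, the members' median was 0.11 beside 0.56 for all genes. No member was called there, beside 0.0955% of all genes called lower, nor was any at an unadjusted p under 0.05.

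**Figure D2:**
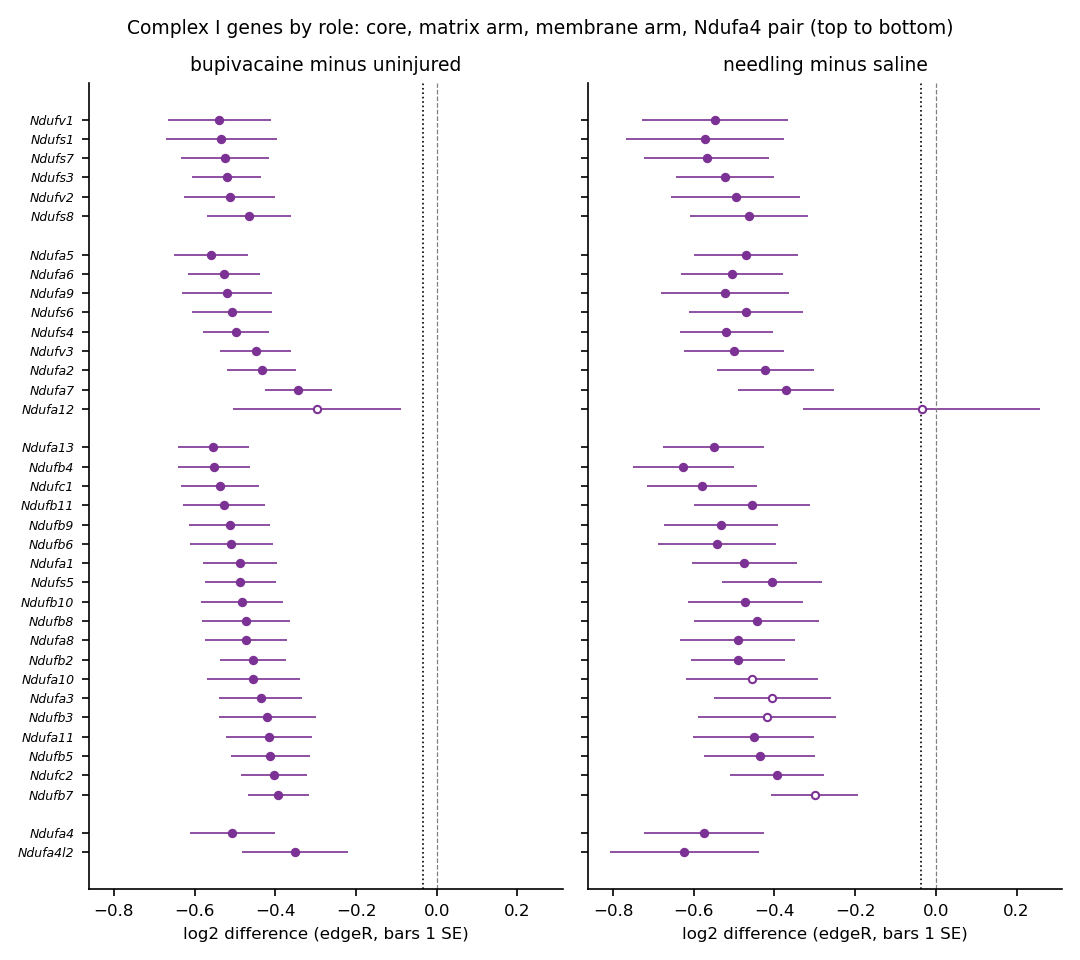
Log2 differences of 36 of the 37 genes with 1 SE from edgeR, for bupivacaine minus uninjured (left, 6 against 6 libraries) and needling minus saline (right, 3 against 3), filled where the Benjamini-Hochberg adjusted p was under 0.05. The dashed line is 0 and the dotted line the median of all tested genes, and every estimate shown lies below 0 while Ndufa12 is open in both panels.

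All 7 core genes fell, with a median of -0.52. Ndufs7 measured 113, 111 and 148 FPKM in needling libraries, 149.8, 139 and 173 in injury libraries, 148, 209 and 191 in saline libraries and 212, 231 and 203 in naive libraries. Ndufs7 holds the last iron-sulfur cluster of the chain before ubiquinone, and it is the gene whose YY1 letters are printed above. Needling replicate 3 reached the level of saline replicate 1. The log2 difference was -0.52 ± 0.11 (SE; edgeR adjusted p = 0.0023). Ndufs3 measured 71.8, 74.7 and 83.2 FPKM in needling libraries, 91.7, 90.8 and 97.8 in injury libraries, 98.6, 123 and 106 in saline libraries and 119, 141 and 142 in naive libraries. Ndufs3 encodes a core subunit of the matrix arm, and its bupivacaine libraries all lay below its uninjured ones. It differed by -0.52 ± 0.09 on the log2 scale (SE; edgeR adjusted p = 0.000433). The core genes Ndufs1, Ndufs8, Ndufv1 and Ndufv2, carry iron-sulfur clusters or the flavin, and their differences lay between -0.54 (Ndufv1) and -0.46 (Ndufs8).

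Of the 9 matrix-arm accessory genes 8 fell, with a median of -0.50. Ndufa2 measured 196, 215 and 214 FPKM in needling libraries, 245, 248 and 240.0 in injury libraries, 254, 324 and 252 in saline libraries and 299, 374 and 324 in naive libraries. Ndufa2, a subunit with a thioredoxin-like fold, had every bupivacaine library below every uninjured one, and the injury libraries spanned a narrow range. The log2 difference was -0.43 ± 0.09 (SE; edgeR adjusted p = 0.00152). Ndufa5 measured 145, 149 and 168 FPKM in needling libraries, 183, 179.5 and 195 in injury libraries, 180.2, 245 and 211 in saline libraries and 263, 299 and 312 in naive libraries. Ndufa5, an accessory subunit whose promoter window also holds the NRF1 letters, had the lowest estimate of all members. Its naive libraries lay above the other 9, and saline replicate 1 lay among the injury libraries. The log2 difference was -0.56 ± 0.09 (SE; edgeR adjusted p = 0.000401). Ndufs4 measured 44.6, 51.2 and 54.5 FPKM in needling libraries, 67.8, 63.1 and 60.0 in injury libraries, 65.5, 79.5 and 68.6 in saline libraries and 84.7, 94.6 and 86.2 in naive libraries. Ndufs4 is an accessory subunit whose loss in mice is a widely used model of mitochondrial disease. Its naive libraries also lay above all others and its needling libraries below all others. The difference was -0.50 ± 0.08 (SE; edgeR adjusted p = 0.000402).

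All 19 membrane-arm accessory genes fell, with a median of -0.47. Ndufb11 measured 191, 191 and 229 FPKM in needling libraries, 264, 237 and 247 in injury libraries, 243, 334 and 254 in saline libraries and 338, 427 and 369 in naive libraries. Ndufb11 is an X-linked gene for a subunit with a single membrane span, and the highest of this arm. Its naive libraries lay above the other 9 in FPKM. In log2 CPM minus the naive mean, naive replicate 1 (-0.163) lay just below saline replicate 2 (-0.158). It differed by -0.53 ± 0.10 on the log2 scale (SE; edgeR adjusted p = 0.00135). Ndufa8 measured 163, 186 and 189 FPKM in needling libraries, 226, 226 and 221 in injury libraries, 196, 299 and 255 in saline libraries and 276, 315 and 329 in naive libraries. Ndufa8, a subunit on the intermembrane-space side, was lowest in needling, while saline replicate 1 lay between the needling and injury libraries. The difference was -0.47 ± 0.10 (SE; edgeR adjusted p = 0.00261). Ndufb4 measured 65.7, 68.1 and 70.6 FPKM in needling libraries, 82.2, 87.6 and 91.4 in injury libraries, 91.8, 126 and 95.5 in saline libraries and 114, 131 and 119 in naive libraries. Ndufb4, a small accessory subunit whose 3 NRF1 matches are printed above, had bupivacaine libraries wholly below uninjured ones. It had the smallest adjusted p of all members, 0.000354 by edgeR, at a log2 difference of -0.55 ± 0.09 (SE). Ndufa13 measured 126, 125 and 143 FPKM in needling libraries, 168, 160.4 and 165 in injury libraries, 173, 223 and 176 in saline libraries and 224, 272 and 228 in naive libraries. In Ndufa13, also known as GRIM-19, the 4 groups did not overlap in FPKM and ran upwards from needling through injury and saline to naive. In log2 CPM minus the naive mean, saline replicate 2 (-0.0991) lay above naive replicate 1 (-0.113), so saline and naive overlapped. The log2 difference was -0.55 ± 0.09 (SE; edgeR adjusted p = 0.000361).

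Ndufa4 measured 220.3, 237 and 259 FPKM in needling libraries, 319, 296 and 308 in injury libraries, 289.6, 431 and 339 in saline libraries and 383, 472 and 397 in naive libraries. Ndufa4 was the member with the highest level, and it followed the common pattern most closely, with saline replicate 1 below all injury libraries. Its log2 difference was -0.51 ± 0.10 (SE; edgeR adjusted p = 0.00213). Ndufa4l2 measured 3.87, 4.98 and 4.02 FPKM in needling libraries, 3.96, 6.06 and 4.74 in injury libraries, 6.59, 6.39 and 6.69 in saline libraries and 5.04, 4.64 and 5.91 in naive libraries. Ndufa4l2, known from other work as a gene induced by hypoxia, was low throughout and highest in saline libraries, which lay above the other 9. It differed from uninjured by -0.35 ± 0.13 (SE), at an edgeR adjusted p of 0.0475 that leaving out most single libraries took past the threshold. Needling minus saline gave -0.62 ± 0.19 (SE; edgeR adjusted p = 0.0244). Saline minus naive gave 0.34 ± 0.19 (SE; edgeR adjusted p = 0.477), the only positive estimate among the members in that comparison.

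Ndufa12 encodes a matrix-arm accessory subunit related to the assembly factor Ndufaf2. It lies at chr10:94198720-94221443 (mm10, plus strand) and has a processed pseudogene, Gm15920, at chr5:130188395-130188796, in which all 402 bases align to the Ndufa12 transcript with 2 mismatches. The stretches around the mismatches are shown because, within the 402 aligned bases, only these could tell a read apart. Ndufa12 has 1569 bases of annotated exon, so reads reaching beyond the aligned part could be told apart as well. Capitals mark the differing base, positions count from 1 at the first base of the start codon, and the first base named is that of Ndufa12. The substitutions are A135G and T414C.
Ndufa12 around A135G: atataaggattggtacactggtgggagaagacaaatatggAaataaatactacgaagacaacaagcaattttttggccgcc
Gm15920 around A135G: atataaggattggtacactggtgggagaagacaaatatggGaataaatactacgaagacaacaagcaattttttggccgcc
Ndufa12 around T414C: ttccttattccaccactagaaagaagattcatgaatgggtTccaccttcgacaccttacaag
Gm15920 around T414C: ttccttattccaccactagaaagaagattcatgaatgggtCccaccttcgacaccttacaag
Over all libraries Ndufa12 had 33250 counts and Gm15920 23249. The next most counted processed pseudogenes were Gm12251 of Ndufs3, with 2085 counts against 58714, and Ndufb4c of Ndufb4, with 1050 counts against 47549.

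The share of their joint count given to Ndufa12 was 68.2%, 66.8% and 70.6% in needling libraries, 48.2%, 64.0% and 54.5% in injury libraries, 36.5%, 56.1% and 63.3% in saline libraries and 69.3%, 57.7% and 42.6% in naive libraries. The groups overlapped, with naive replicate 1 among the needling values and saline replicate 1 lowest of all. Ndufa12 measured 115, 107 and 137 CPM in needling libraries, 85.1, 124 and 110.0 CPM in injury libraries, 70.6, 146 and 150.4 CPM in saline libraries and 203, 163 and 104 CPM in naive libraries. These groups overlap. The sum of both measured 168, 159.9 and 193 CPM in needling libraries, 177, 194 and 202 CPM in injury libraries, 193, 259.9 and 238 CPM in saline libraries and 293, 283 and 243 CPM in naive libraries. In the sum needling replicates 1 and 2 were the lowest libraries and naive replicates 1 and 2 the highest, while needling replicate 3 lay among the injury and saline libraries.

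For bupivacaine minus uninjured, Ndufa12 alone gave -0.30 ± 0.21 (SE; edgeR adjusted p = 0.284), Gm15920 alone -0.72 ± 0.12 (adjusted p = 0.000449) and the sum -0.46 ± 0.09 (adjusted p = 0.00191). For needling minus saline, Ndufa12 alone gave -0.04 ± 0.29 (edgeR adjusted p = 0.943) and the sum -0.41 ± 0.13 (adjusted p = 0.0366). Ndufa12 reads that the counting could assign to either gene cannot be told apart here, so its value is uncertain. With the copies added to their member, a setting chosen after the data were seen, 37 of 37 members were called lower in bupivacaine muscle. In that setting 18.3% of all genes were called lower.

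**Figure D3:**
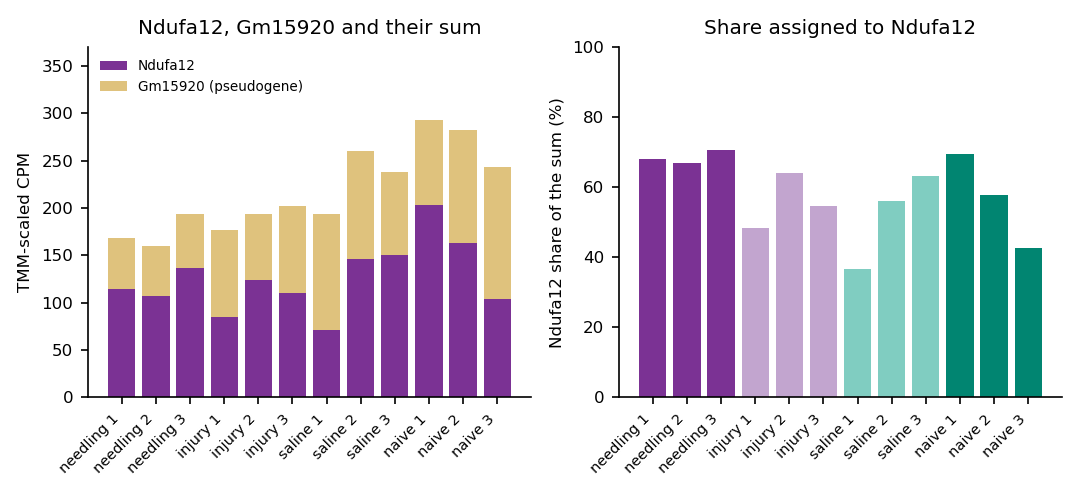
Left, TMM-scaled CPM of Ndufa12 and its pseudogene Gm15920 stacked by library, so that bar height is their sum. Right, the percentage of the sum that was counted as Ndufa12, from 36.5% in saline replicate 1 to 70.6% in needling replicate 3.

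The comparison of needling with saline muscle set bupivacaine and acupuncture together against the vehicle injection. Of the 37 members 32 fell, beside 10.8% of all genes called lower, with a median of -0.49 against -0.04 over all genes. Estimates were negative for all 37, beside 53% of all genes. All 7 core genes, 8 of 9 matrix-arm genes, 15 of 19 membrane-arm genes and both Ndufa4 genes were called. Ndufb4 had the lowest estimate, -0.63 ± 0.13 (SE; edgeR adjusted p = 0.00281). The 5 not called were Ndufa3, Ndufa10, Ndufa12, Ndufb3 and Ndufb7, of which all but Ndufa12 had estimates from -0.46 (Ndufa10) to -0.30 (Ndufb7). In CPM 28 members had all 3 needling libraries below all 3 saline libraries, beside 22.1% of all genes in that direction. The count depended on single libraries, while the members' median stayed between -0.59 and -0.36. Without saline replicates 1, 2 and 3 in turn the count was 35, 8 and 18, beside 6.82%, 5.77% and 6.33% of all genes called lower. Without needling replicates 1 and 2 in turn it was 8 and 14, beside 6.22% and 3.12%. With the 2 groups alone it was 19, beside 9.58% of all genes called lower. With library totals alone it was 0, beside 1.15%, and with scaling to fast-fibre genes it was 0, beside 0.0636%.

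Injury minus saline asked what bupivacaine did beyond the vehicle. No member was called, beside 0.07% of all genes called lower. All 37 estimates were negative, beside 54.2% of all genes, with a median of -0.19 against -0.03 for all genes. By edgeR 2 members had an unadjusted p under 0.05, beside 3.72% of all genes at that p and lower, while DESeq2 called 0. Without saline replicate 2 the median was -0.02. Ndufs7, for example, measured 154 ± 17.3 FPKM in injury and 183 ± 31.3 FPKM in saline muscle (SD, n = 3 each). Ndufa13 measured 164 ± 3.66 FPKM in injury and 191 ± 27.8 FPKM in saline muscle (SD, n = 3 each). In CPM 6 members had all 3 injury libraries below all 3 saline libraries, beside 9.72% of all genes in that direction.

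Needling minus injury asked what acupuncture added after bupivacaine. No member was called, beside 0% of all genes called in either direction by edgeR. Of the 37 estimates 36 were negative, beside 48.7% of all genes, with a median of -0.31 against 0.01 over all genes. An unadjusted p under 0.05 was found for 18, beside 3.58% of all genes at that p and lower. The exception was Ndufa12, at 0.17 ± 0.29 (SE) alone and -0.13 with its copy added. In CPM 23 members had all 3 needling libraries below all 3 injury libraries, beside 7.27% of all genes. Ndufb9, with the lowest estimate, a subunit of the membrane arm chosen here after its values were seen, gave -0.40 ± 0.14 (SE; edgeR adjusted p = 0.196). Departures from the group mean were positively correlated, across genes, between needling and injury libraries that share a number. Fitting these 6 libraries with that number as a blocking term, 32 members were called lower, beside 7.74% of all genes. Ndufb4 there gave -0.38 ± 0.08 (SE; edgeR adjusted p = 0.00594). The block within the fit of 12 libraries called 0 members and DESeq2 0. Limma-voom with quality weights called 3, beside 0.67% of all genes called lower.

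Saline minus naive asked what an injection did. No member was called, beside 0% of all genes. Negative estimates were found for 36 members, beside 47.8% of all genes, with a median of -0.30 against 0.01 over all genes. An unadjusted p under 0.05 was found for 16, beside 4.35% of all genes at that p and lower. DESeq2 called 2, beside 0.0766% of all genes called lower. Ndufa5 measured 212 ± 32.5 FPKM in saline and 291 ± 25.5 FPKM in naive muscle (SD, n = 3 each), which is -0.45 ± 0.13 on the log2 scale (SE; edgeR adjusted p = 0.295). In CPM 12 members had all 3 saline libraries below all 3 naive libraries, beside 7.01% of all genes in that direction. Ndufa4l2 had them all above, and saline replicate 2 was the library nearest to naive muscle.

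Against naive muscle both bupivacaine groups had lower complex I genes, in comparisons that share the naive libraries with each other. All 37 estimates were negative in both, beside 51.8% of all genes in needling minus naive and 51.9% in injury minus naive. Needling minus naive called 35 members lower, beside 18.8% of all genes, with a median of -0.80, and the 2 others were Ndufa12 and Ndufa4l2. Leaving out any single library kept the count at 35, beside 4897 to 6421 of all genes called in either direction. Injury minus naive called 27 lower, beside 5.41% of all genes, with a median of -0.48. That count fell to between 2 and 15 when 1 of the 6 injury and naive libraries was left out. It was 2 without naive replicate 2, beside 0.52% of all genes called lower. Ndufa5 gave -0.92 ± 0.13 (SE; edgeR adjusted p = 0.000132) in needling and -0.65 ± 0.13 (SE; edgeR adjusted p = 0.00442) in injury muscle. In CPM 35 members had every needling library below every naive one, beside 24.1% of all genes in that direction, and 35 had every injury library below every naive one, beside 15.9%.

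Other genes of the pathway were counted in the same bupivacaine minus uninjured fit. Of the 7 mitochondrial genes for core membrane-arm subunits 5 fell, with a median of -0.63. mt-Nd1 gave -0.63 ± 0.13 (SE; edgeR adjusted p = 0.00206), mt-Nd4l -1.04 ± 0.39 (adjusted p = 0.0593) and mt-Nd3 0.29 ± 0.43 (adjusted p = 0.631). These genes overlap each other or have nuclear copies, so reads could be shared. Of 17 assembly factors, which build the complex without staying in it, 11 fell and the median was -0.31. Ecsit gave -0.51 ± 0.08 (SE; edgeR adjusted p = 0.000443) and Ndufaf6 -0.51 ± 0.11 (adjusted p = 0.00233), whereas Foxred1 gave -0.04 ± 0.10 (adjusted p = 0.754) and Nubpl, which delivers iron-sulfur clusters to the complex, -0.10 ± 0.11 (adjusted p = 0.520). Ndufab1 gave -0.41 ± 0.09 (SE; edgeR adjusted p = 0.00272).

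The other respiratory complexes were called as fully: 4 of 4 tested genes of complex II fell, 9 of 9 of complex III, 10 of 10 of complex IV and 15 of 15 of complex V, with medians of -0.48, -0.49, -0.46 and -0.45. Sdha, the flavoprotein of complex II, gave -0.58 ± 0.12, and Cox7a1, the muscle form of a cytochrome oxidase subunit, -0.70 ± 0.13 (SE; edgeR adjusted p = 0.00255 and 0.00125). All 11 citric acid cycle genes fell, with a median of -0.52. Among 11 regulators of mitochondrial biogenesis 4 fell, with a median of -0.28: the coactivator gene Ppargc1a (-0.50 ± 0.11; edgeR adjusted p = 0.00301), the estrogen-related receptor gene Esrra, and Tfb2m and Tfam, which act in mitochondrial transcription. Nrf1, the factor whose letters stand in 8 member promoters, gave -0.02 ± 0.07 (edgeR adjusted p = 0.818), and Yy1 gave -0.15 ± 0.08 (adjusted p = 0.134). Among the 12 fast-fibre markers 9 fell, with a median of -0.61. Ckm, muscle creatine kinase, gave -0.62 ± 0.15 (SE; edgeR adjusted p = 0.00508) and Myh1 0.00 ± 0.31 (adjusted p = 0.994). None of 8 slow-fibre markers was called by edgeR, with 0 at an unadjusted p under 0.05. All 10 macrophage markers rose, with a median of 2.42.

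By library, the members' median minus that of the fast-fibre markers was -0.28, 0.40 and 0.05 in needling libraries, 0.02, 0.21 and -0.13 in injury libraries, -0.41, 0.09 and -0.05 in saline libraries and -0.04, -0.11 and 0.14 in naive libraries. These groups overlap, and the lowest value was that of saline replicate 1. Without the 2 Ndufa4 genes the members' median changed by little, to -0.92, -0.82 and -0.63 in needling libraries.

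**Figure D4:**
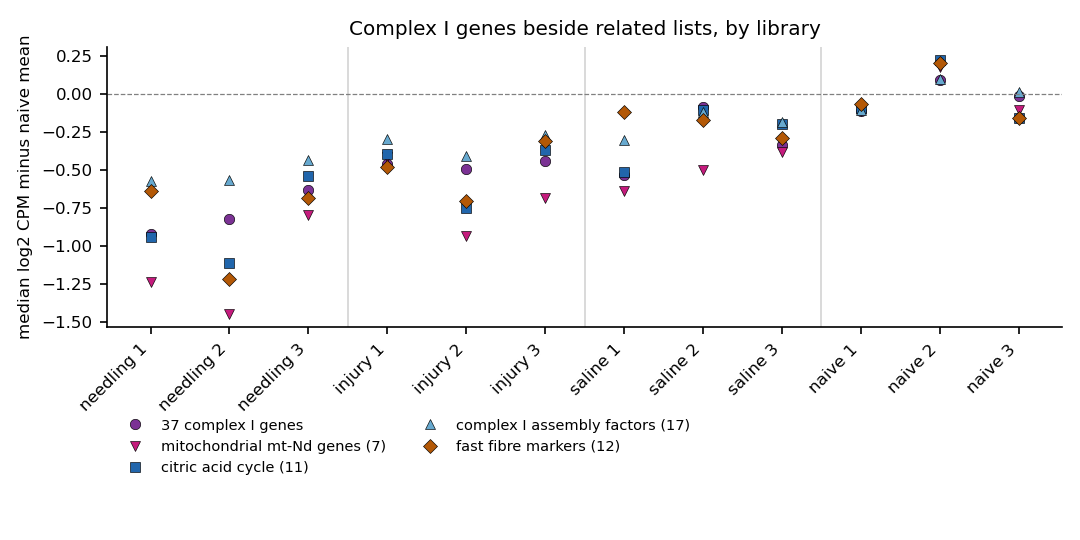
Median log2 CPM minus the naive mean in each library for the 37 complex I genes and 4 related lists, with the number of genes in brackets. The lowest library of each list is a needling library, and in saline replicate 1 the complex I genes lie at -0.53 while the fast-fibre markers lie at -0.12.

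Many of the members start head to head with another gene. A protein-coding gene on the opposite strand that starts within 1000 bases and runs the other way was found for 17 of 37 members (45.9%), and for 15.1% of the 13601 tested protein-coding genes. Of the 15 such neighbours that were tested, 1 fell, 2 rose and 12 were not called in bupivacaine minus uninjured, with a median of -0.03. Among all tested genes 18.3% were called lower and 21.8% higher, with a median of -0.03 as well. Tatdn1, which starts 18 bases from Ndufb9, gave -0.43 ± 0.08 (SE; edgeR adjusted p = 0.000759). Eef1b2, a translation elongation factor gene that starts beside Ndufs1, gave 0.25 ± 0.08 (edgeR adjusted p = 0.0219). Rps28, a ribosomal protein gene 10 bases from Ndufa7, gave 0.25 ± 0.15 (edgeR adjusted p = 0.197), and Mrpl36 beside Ndufs6 -0.08 ± 0.06 (adjusted p = 0.302). Whether counting used strand was not given in the sources used here, so reads in overlapping ends could have gone to either gene.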

How the data were processed

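Total RNA of 12 gastrocnemius samples was extracted with Trizol and made into NEBNext Ultra libraries, per the labels' protocols. Reads were aligned with HISAT2 2.0.5 to mm10, per the submitters' processing notes. The authors deposited raw counts per gene. Which tool counted them, with what annotation and whether by strand, is not given in the sources used here. FPKM were deposited too, and in 6831 genes compared its scale per library equalled the median-ratio size factor of the counts, not the total, so it already assumes that most genes are unchanged. The depth, 16385233 to 27155738 counts per library, bounds the precision, and it covers counting error only.

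Symbols, coordinates and transcripts came from GENCODE M21, matched by Ensembl ID, and promoters from RefSeq. The members and all gene lists were chosen with earlier results of these data known. edgeR 4.0.16 in R 4.3.3 fitted all 12 libraries with a mean per group (quasi-likelihood, TMM, robust dispersion, filter of 10 counts by group), and p-values were Benjamini-Hochberg adjusted over the 15715 genes kept. In 7 comparisons a gene was called at an adjusted p under 0.05. Errors of log2 differences are SE. Steps were tested on simulated data. Copies were found with blastn 2.17.0 at 95% identity over at least 100 bases. Log2 CPM per library used a prior count of 2.

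Values in every library are given for the 2 members of each role with the highest mean FPKM and the 2 with the smallest p, for Ndufa4 and Ndufa4l2, and for any member going against the median, and at most 3 genes with the smallest p were to be named from each related list. A member that the rule names is not reported here, but it stays in all counts and medians. Other genes named were chosen after their values were seen. To check whether replicate numbers pair libraries, each library's departure from its group mean was correlated with that of the library of the same number in another group. Between needling and injury these values were 0.238, 0.485 and 0.422, and no other pair of groups exceeded 0.1 for all 3 numbers. Same-numbered libraries also matched best between saline and needling (0.216, 0.176 and 0.0413) and between naive and saline (0.0672, 0.111 and 0.0822). The labels give no origin for this.

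Other settings were DESeq2 1.42.0, median-ratio and upper-quartile factors, library totals alone, no filter, a stricter filter of 1 CPM in 6 libraries, only the groups compared, limma 3.58.1 on log2 FPKM with a pseudocount of 1 or 0.1, voom with sample weights, replicate blocks and leaving out each library. Scaling to 12 fast-fibre genes and adding pseudogene copies to their member were chosen after the data were seen.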

Additional observations from a re-analysis of the deposited data

How the results depend on the processing

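Counts of members called lower rest on scaling and, in the small comparisons, on single libraries. With library totals alone, 1 member was called in bupivacaine minus uninjured, 0 in needling minus saline, 0 in injury minus naive and 12 in needling minus naive. Of all genes 1.71%, 1.15%, 0.0891% and 2.02% were called lower there, in the same order. Scaled to 12 fast-fibre genes, 0 were called in each of these, beside 0.0955%, 0.0636%, 0.0255% and 0.14% of all genes called lower. The members' median was 0.11, 0.20, 0.0155 and 0.0649 in the same order. The median of all genes was then 0.56, 0.65, 0.48 and 0.83, so that over the 5 scalings the members' median stayed -0.46 to -0.45 from that of all genes in bupivacaine minus uninjured and -0.77 in needling minus naive. In that setting all 37 bupivacaine minus uninjured estimates became positive, among them those of Ndufs7 (0.0515), Ndufs3 (0.0671), Ndufa2 (0.17), Ndufa5 (0.0252), Ndufs4 (0.10), Ndufb11 (0.0634), Ndufa8 (0.12), Ndufb4 (0.0425), Ndufa13 (0.0398), Ndufa4 (0.0881), Ndufa4l2 (0.26) and Ndufa12 (0.29). These settings differ only in the factor per library, which moves all genes together, and which factor is right for this tissue was not tested.

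Needling minus saline called 19 members with only its 2 groups, beside 9.58% of all genes called lower. It called 8 to 35 members when a library was left out. Injury minus naive called 17 with upper-quartile factors, beside 3.33% of all genes called lower, and 2 to 15 when a library was left out. Over all genes, needling minus saline called 4556 in either direction, and 2460 to 4579 with a library left out. Injury minus naive called 2759 of all genes, and 1365 to 2551 with a library left out. Needling minus injury called 3 with limma-voom weights, beside 0.67% of all genes called lower. With the replicate block on its 6 libraries it called 32, beside 7.74%. With the replicate block over 12 libraries it called 0, and the block moved the count of members past 1.5 times in no other comparison. Saline minus naive called 2 with DESeq2, beside 0.0766% of all genes called lower. For these changes the cause was not tested. In bupivacaine minus uninjured, leaving out a library gave 34 to 36 called members, beside 5214 to 6342 of all genes called in either direction.

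Ndufa12 changed sign most often. With library totals alone it was 0.0326 in bupivacaine minus uninjured and 0.25 in needling minus saline. In needling minus saline it was 0.0482 and 0.0499 with limma on log2 FPKM at pseudocounts of 1 and 0.1, 0.61 scaled to fast-fibre genes and -0.32 to 0.14 when a library was left out. In needling minus injury it was -0.13 with its pseudogene copy added.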
